A study of Mus musculus with 19 samples.

Results

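The genes described here are 10 markers of resident, M2-type macrophages, out of 55487 genes in the count table: Cd163, Mrc1, Siglec1, Folr2, Timd4, Cd209f, Mgl2, Clec10a, F13a1 and Stab1. All 10 were among the 16909 genes abundant enough to test. The genes were chosen by name with earlier results of these libraries in view, and the measured values known to have been in view were lower counts of Cd163 and Siglec1 with regorafenib than with vehicle. Whether values of other groups bore on the choice is not recorded. The values of regorafenib against vehicle are therefore given as a description, without p-values, and support nothing. Of the 10, 9 encode cell surface receptors. F13a1 is the exception, since it encodes the A subunit of coagulation factor XIII, a transglutaminase that tissue macrophages make.

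Bulk RNA of oral tumours was sequenced in 19 libraries. The tumours were induced in C57BL/6J mice that drank the carcinogen 4NQO (4-nitroquinoline 1-oxide) at 100 µg/ml for 10 weeks, starting at 6 weeks of age, and then plain water. The carcinogen was common to every group, so the controls are tumours too. The groups were vehicle (4 libraries), regorafenib, an oral multikinase inhibitor, at 5 mg/kg/day (4), an antibody to the checkpoint receptor PD-1 (3), that antibody with regorafenib, called the combination here (5), and an agonist antibody to CD40 (3). The antibody doses, and the regorafenib dose within the combination, were not given in the sources used here. The treatment protocol in the labels does not mention the CD40 group, which is known from the sample labels alone. The labels do not say whether the libraries of a group came from separate mice. The p-values then measure only the spread between these libraries.

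Resident macrophages line vessels, nerves and connective tissue, take up debris and modified proteins, and carry scavenger receptors and lectins that recruited monocytes carry less of. Interleukin-4, interleukin-13, interleukin-10 and glucocorticoids raise many of these genes in culture, which is why the state is called M2-type. Regorafenib inhibits, among other kinases, the VEGF receptors, TIE2, KIT, PDGF receptors and CSF1R, the receptor on which macrophages depend for survival.

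Promoter sequence is shown for Mrc1 and Cd163, the pair of genes that passed the test between the combination and regorafenib alone. Each line holds the 250 bases before the annotated start on the gene's strand, from RefSeq on GRCm38.p6, with matches to GAGGAA, or to its reverse complement TTCCTC, in capitals. GAGGAA is a core of the sites bound by PU.1, the transcription factor that specifies macrophages.
Mrc1 (chr2:14229164-14229413, plus strand): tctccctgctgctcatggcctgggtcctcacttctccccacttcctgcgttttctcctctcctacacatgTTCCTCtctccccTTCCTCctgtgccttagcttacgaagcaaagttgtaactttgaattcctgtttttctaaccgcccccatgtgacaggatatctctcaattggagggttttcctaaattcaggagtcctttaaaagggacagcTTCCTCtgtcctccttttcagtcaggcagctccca
Cd163 (chr6:124304401-124304650, plus strand): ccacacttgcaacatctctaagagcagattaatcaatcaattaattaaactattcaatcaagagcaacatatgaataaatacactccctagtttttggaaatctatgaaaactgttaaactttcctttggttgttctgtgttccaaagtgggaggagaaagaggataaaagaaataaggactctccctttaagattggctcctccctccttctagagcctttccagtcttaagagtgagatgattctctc
The Mrc1 window held 3 matches and the Cd163 window none. Of the 10 genes 8 had an entry in the promoter table, with 10 starts between them. A match was held by 4 of these genes (Mrc1, F13a1, Mgl2 and Stab1), at 1 start each. In all 32851 promoters of the same length, counted by start and not by gene, the share with a match was 23.3%. These are matches of letters, searched on both strands, and were not measured as bound sites.

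Some of these genes share sequence, which bears on how reads are assigned to them. Mgl2 (chr11:70130329-70137550) and Clec10a (chr11:70156197-70170834), both on the plus strand, are neighbouring copies of a galactose-binding C-type lectin. The longest identical stretch of their transcripts is 183 bases, all coding, in exons 7 to 9 of Mgl2 (chr11:70136337-70136699 on GRCm38). It is shown because a read that lies within it fits both genes.
Mgl2 and Clec10a, shared stretch: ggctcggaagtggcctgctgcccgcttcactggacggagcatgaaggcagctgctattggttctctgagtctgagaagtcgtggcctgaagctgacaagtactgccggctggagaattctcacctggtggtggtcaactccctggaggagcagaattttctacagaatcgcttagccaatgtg
Over the whole gene, 3.95% of the 100-base exon stretches of Mgl2 and 2.64% of those of Clec10a occur in another gene. The share was 19.9% for Cd209f, all of it shared with Cd209g, and 42.2% for Folr2, whose exons lie over Gm10602 on the other strand. How the authors' counting treated strand and shared reads is not given in the sources used here, so the Folr2 and Cd209f counts are uncertain. Gm10602 itself had 20 to 51 counts per library, against 36 to 107 for Folr2. For the other 6 genes the share was at most 0.114%.

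Library totals ran from 16776177 to 24969492 counts. Levels below are CPM, that is, counts scaled to a common library size, with TMM factors of 0.954 to 1.04. Markers common to all macrophages were present in every library: Adgre1 (F4/80) stood at 3.41 to 7.41 CPM, Csf1r at 20.9 to 35.8 and C1qa at 9.92 to 24.1. The squamous keratin gene Krt5 stood at 1940 to 3579 CPM and the muscle gene Ckm at 2331 to 4847, so the pieces held squamous epithelium and skeletal muscle as well. In such bulk RNA, fewer cells of a type and less RNA per cell cannot be told apart.

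Counts per gene differed widely. Stab1 had 581 to 1355 counts per library and Cd163 126 to 507, whereas Siglec1 had 8 to 42 and Timd4 6 to 31. Levels can be compared between genes only per kilobase of exon. On that scale Stab1 was the most abundant, at a mean of 4.15 RPKM over the 19 libraries, followed by Cd163 (2.98) and F13a1 (2.85). Mgl2, Mrc1, Folr2 and Clec10a lay between 1.89 and 2.25 RPKM. Cd209f stood at 1.35, and Timd4 (0.340) and Siglec1 (0.158) were the lowest.

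The scavenger and endocytic receptors come first. Cd163, the haemoglobin-haptoglobin receptor (ENSMUSG00000008845.9, chr6:124304656-124330527, plus strand), stood at 14.1, 17.1, 22.7 and 19.4 CPM in the vehicle libraries and at 9.40, 8.95, 7.10 and 11.3 CPM in the regorafenib libraries. It stood at 16.6, 20.1 and 20.6 CPM with anti-PD1, at 22.0, 17.3, 17.9, 19 and 14.9 CPM in the combination group, and at 15.4, 22.1 and 13.5 CPM with anti-CD40. Every regorafenib value lay below each of the 15 other libraries, whose groups overlapped one another. The group means were 9.18 ± 1.71 CPM with regorafenib (SD, n = 4) and 18.3 ± 3.66 with vehicle (n = 4). The other means were 19.1 ± 2.21 (anti-PD1, n = 3), 18.2 ± 2.55 (combination, n = 5) and 17 ± 4.54 CPM (anti-CD40, n = 3).

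Mrc1, the mannose receptor CD206 (ENSMUSG00000026712.3, chr2:14229392-14332057, plus strand), read 13.3, 11.1, 17.6 and 10.4 CPM in the vehicle libraries and 9.75, 6.91, 11 and 10.2 CPM in the regorafenib libraries. It read 14.1, 11 and 15.4 CPM with anti-PD1, 18.1, 13.6, 12.8, 13.4 and 11.4 CPM under the combination, and 11.5, 13.9 and 10.3 CPM with anti-CD40. The regorafenib libraries were low but overlapped those of vehicle, anti-PD1 and anti-CD40, while every combination value lay above every regorafenib value.

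Stab1, or stabilin-1, a scavenger receptor for acetylated lipoproteins and the matrix protein SPARC (ENSMUSG00000042286.13, chr14:31139013-31168641, minus strand), had the opposite order. It read 39.5, 32.8, 43.4 and 30.1 CPM in the vehicle libraries and 53.0, 40.3, 41.6 and 60.1 CPM in the regorafenib libraries. The means were 36.5 ± 6.04 (SD, n = 4) and 48.8 ± 9.46 CPM (n = 4), the lowest and the highest of the 5 groups, and their libraries overlapped. With the combination Stab1 read 45.0, 47.8, 43.3, 43.1 and 53.0 CPM, at a mean of 46.4 ± 4.13 (n = 5), above all 3 anti-CD40 libraries (41.7, 38.8 and 38.7 CPM). The 3 anti-PD1 libraries read 43.4, 36.9 and 38.9 CPM.

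Siglec1, or CD169, a sialic acid receptor of resident and subcapsular sinus macrophages (ENSMUSG00000027322.11, chr2:131069220-131086765, minus strand), read 1.23, 1.01, 2.24 and 0.934 CPM in the vehicle libraries. In the regorafenib libraries it read 0.631, 0.443, 0.451 and 0.709 CPM, all below vehicle. One combination library, the second, reached down to the regorafenib range at 0.591 CPM, and the other 4 read 1.00 to 1.69 CPM. Anti-PD1 gave 1.75, 0.720 and 1.79 CPM and anti-CD40 1.1, 1.20 and 1.58 CPM.

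Folr2, the folate receptor beta (ENSMUSG00000032725.10, chr7:101839988-101857194, minus strand), read 4.25, 2.62, 3.35 and 2.7 CPM with vehicle and 2.35, 1.95, 2.03 and 2.22 CPM with regorafenib. These groups did not overlap either, but the combination, at 2.29 to 3.59 CPM, overlapped both. Timd4, the phosphatidylserine receptor Tim4 through which resident macrophages take up dying cells (ENSMUSG00000055546.6, chr11:46810800-46844332, plus strand), was highest with anti-PD1. It read 0.972, 1.22 and 1.39 CPM there, against 0.834, 0.302, 0.852 and 0.571 CPM with vehicle and 0.606, 0.650, 0.724, 0.818 and 0.548 CPM with the combination. The anti-PD1 libraries lay above both groups and above all 4 regorafenib libraries (0.399 to 0.676 CPM). They overlapped anti-CD40, where 1 library stood at 1.46 CPM and the other 2 at 0.655 and 0.416.

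The 3 C-type lectins did not share 1 order. Mgl2, or CD301b (ENSMUSG00000040950.13), which dermal dendritic cells also carry, read 6.37, 4.82 and 7.81 CPM with anti-PD1 and 4.98, 4.61, 4.79, 3.42 and 2.74 CPM with the combination. It read 5.88, 3.73, 3.62 and 3.79 CPM with vehicle and 3.55, 4.70, 4.11 and 4.52 CPM with regorafenib, so the means of these groups were nearly the same (4.25 ± 1.08 and 4.22 ± 0.507 CPM, SD, n = 4 each). With anti-CD40 Mgl2 read 6.47, 5.03 and 4.49 CPM.

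Clec10a, or CD301a (ENSMUSG00000000318.16), the copy next to Mgl2, was instead lowest with regorafenib. It read 4.47, 2.08, 3.10 and 5.50 CPM there and 6.35, 5.39, 8.42 and 6.17 CPM with vehicle, groups that overlapped by 1 library. The combination lay between them at 4.02 to 6.19 CPM, and anti-PD1 spread from 4.93 to 9.16 CPM. Cd209f, a mouse relative of DC-SIGN (ENSMUSG00000051906.15, chr8:4102787-4105835, minus strand), was the most uneven. It ranged from 1.71 to 5.06 CPM with vehicle, 1.41 to 3.41 with regorafenib, 2.16 to 6.60 with anti-PD1, 0.947 to 3.03 under the combination and 2.66 to 3.17 with anti-CD40, and every pair of groups overlapped.

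F13a1 (ENSMUSG00000039109.16, chr13:36867178-37050244, minus strand) read 22.5, 18.1, 30.8 and 16 CPM with vehicle and 14.2, 12, 15 and 14.1 CPM with regorafenib. It read 23.5, 19 and 19.7 CPM with anti-PD1, 29.4, 16.6, 18.7, 22.8 and 15.8 CPM under the combination, and 17.3, 22.6 and 17.6 CPM with anti-CD40. As with Cd163, every regorafenib value lay below each of the 15 other libraries. Platelets also carry factor XIII A. Of 7 platelet and megakaryocyte genes listed, 2 were abundant enough to test. They were Itga2b, at 6.65 to 10.9 CPM, and Ppbp, at 0 to 4.37 CPM, highest on average with anti-PD1 (2.35 ± 2.01 CPM, SD, n = 3, against 0.379 ± 0.285 with vehicle, n = 4). Gp9 had 0 to 3 counts per library.

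**Figure D1:**
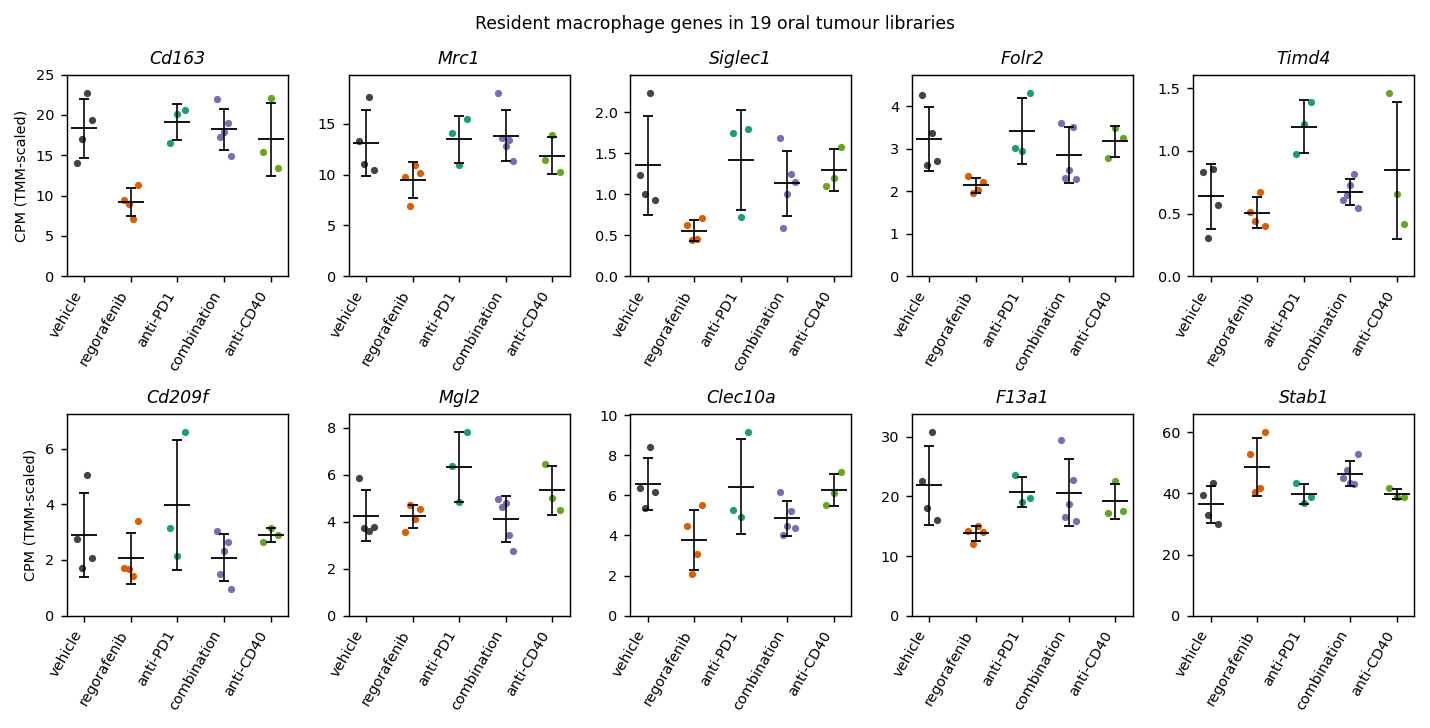
Level of each of the 10 genes in CPM (y axis, each panel from 0 on its own scale) in every library by treatment group (x axis), with points for libraries and bars for the group mean ± SD. The 4 regorafenib libraries are the lowest of the 19 for Cd163, at 7.10 to 11.3 CPM, and for F13a1, at 12 to 15 CPM, while Stab1 is highest on average with regorafenib.

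Of the 10 genes, 8 had their lowest group mean with regorafenib, a count that cannot be told apart from the choice of the list. Over all tested genes 29% had their lowest mean in that group and 30.1% their highest. The exceptions were Mgl2, lowest with the combination, and Stab1, lowest with vehicle. Anti-PD1 held the highest mean of 6 of the 10, against 21.8% of all tested genes. In the order of group means most neighbours overlapped. The gaps without overlap lay between regorafenib and anti-CD40 for Cd163 and F13a1, and between anti-CD40 and the combination for Stab1.

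Regorafenib alone against vehicle is the comparison in which Cd163 and Siglec1 were known to differ when the list was chosen. The log2 change, regorafenib minus vehicle, was −0.99 ± 0.17 for Cd163 (SE, n = 4 and 4), a level 1.99 times lower, and −1.26 ± 0.36 for Siglec1. It was −0.80 ± 0.25 for Clec10a, −0.66 ± 0.20 for F13a1, −0.60 ± 0.20 for Folr2 and −0.48 ± 0.18 for Mrc1. Cd209f, Timd4 and Mgl2 lay between −0.48 and −0.01, and Stab1 was the only gene above 0, at 0.42 ± 0.12. The median of the 10 was −0.54, beside 0.00 over all genes. The fit over all genes called 3 of the 10 (Cd163 and Siglec1 lower, Stab1 higher) and 6.32% of all tested genes. The libraries did not overlap for 4 of the 10, all lower, where 7.88% of all tested genes were lower without overlap. This pattern cannot be told apart from the choice of the list, and nothing is read from these counts.

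The combination against anti-PD1 compares libraries with and without regorafenib, with the antibody present in both arms. It shares no library with the comparison above. The regorafenib dose in the combination was not given, so it may differ from the 5 mg/kg/day of regorafenib alone. None of the 10 genes passed at an adjusted p under 0.05 (edgeR), where 0.00591% of all tested genes did, nor did any with DESeq2 or limma. Cd163 stood at a log2 difference of −0.07 ± 0.17, combination minus anti-PD1 (SE, n = 5 and 3; edgeR adjusted p = 0.938), with a 95% interval of −0.43 to 0.30. F13a1 differed by −0.00 ± 0.21 (interval −0.44 to 0.43) and Mrc1 by 0.04 ± 0.18 (−0.35 to 0.42).

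Siglec1 had a wider interval, −1.02 to 0.39 around −0.32, and Cd209f the widest of the 10, −1.80 to −0.06. Folr2 stood at −0.26 ± 0.20, Clec10a at −0.41 ± 0.25 and Stab1 at 0.22 ± 0.13. At an unadjusted p under 0.05, 3 of the 10 genes were lower with the combination, where 9.94% of all genes passed in either direction. They were Mgl2 (−0.63 ± 0.21, edgeR adjusted p = 0.273), Timd4 (−0.83 ± 0.34, 0.396) and Cd209f (−0.93 ± 0.41, 0.458). Anti-PD1 3 weighed on several of these values. Without it Cd209f stood at −0.34, Clec10a at −0.065 and Folr2 at −0.059. Only Timd4 had libraries that did not overlap, where 2.84% of all tested genes were lower without overlap. These 3 were not the genes with the largest differences between regorafenib and vehicle. The median of the 10 was −0.29, beside −0.00 over all genes. For Siglec1, F13a1, Mrc1 and Cd163 the sign of this difference changed under at least 1 other setting.

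**Figure D2:**
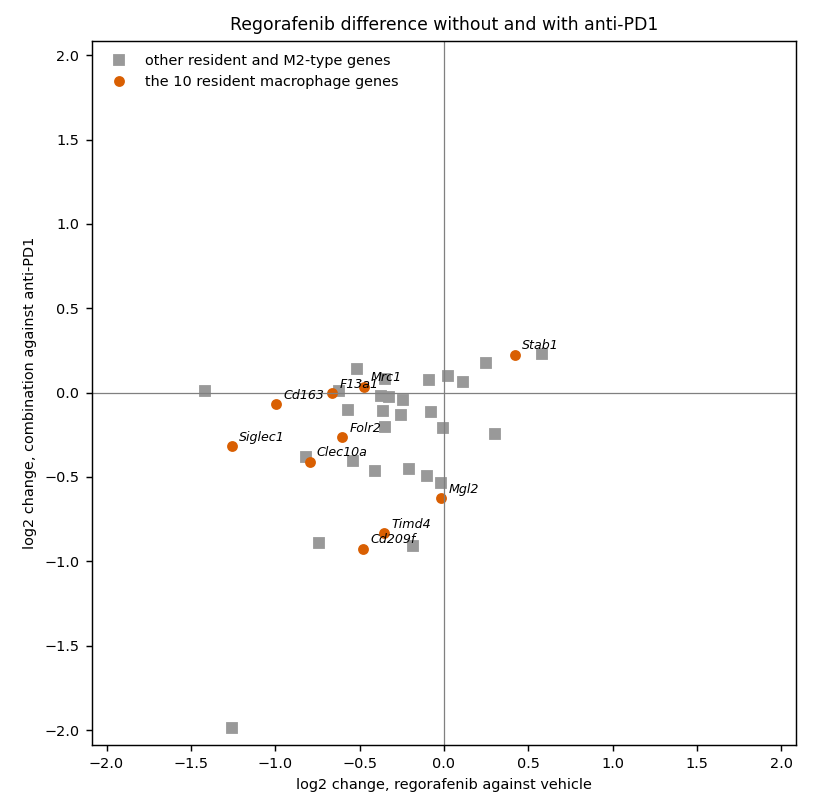
Log2 change of regorafenib against vehicle (x axis) and of the combination against anti-PD1 (y axis) for the 10 genes (orange circles, labelled) and 28 other resident or M2-type macrophage genes (grey squares). Cd163 lies at −0.99 on the x axis and at −0.07 on the y axis, and Mgl2 at −0.63 on the y axis without a shift along x.

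Against regorafenib alone, the combination had higher Cd163 and Mrc1. This comparison shares the regorafenib libraries in which Cd163 and Siglec1 were known to be low, so it is not an independent one. Cd163 rose by 0.99 ± 0.17 on the log2 scale (SE, n = 5 and 4; edgeR adjusted p = 0.00504), 1.98 times the level with regorafenib, and it passed in all 9 fits that each left out 1 library (0.88 to 1.1). Mrc1 rose by 0.55 ± 0.17 (edgeR adjusted p = 0.0482). Its call rested on single libraries: it passed without combination 5 and did not pass when any 1 of the other 8 libraries was left out. The log2 change over these 9 fits ran from 0.42 to 0.63. F13a1 stood at 0.58 ± 0.19 (adjusted p = 0.0612), Siglec1 at 1.03 ± 0.35 (0.0637) and Folr2 at 0.42 ± 0.19 (0.153), none past the threshold in edgeR's test. The 2 of 10 genes that rose compare with 5.67% of all tested genes called higher and 10.5% called in either direction. The libraries did not overlap for 3 of the 10, Cd163, Mrc1 and F13a1, all higher, where 7.24% of all tested genes were higher without overlap. The median of the 10 was 0.41, beside −0.01 over all genes.

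The regorafenib effect with the antibody minus that without it is the interaction, and it again uses the vehicle and regorafenib libraries. A difference in regorafenib dose between these arms, if there was one, cannot be told apart from it. None of the 10 genes passed in edgeR, where 0.627% of all tested genes did. At an unadjusted p under 0.05 there were 2, where 15.8% of all genes passed. Cd163 stood at 0.93 ± 0.25 on the log2 scale (edgeR adjusted p = 0.0838) and F13a1 at 0.66 ± 0.29 (0.274). DESeq2 called 1 of the 10, Cd163, with an adjusted p of 0.0141, so this call depended on the tool. DESeq2 also called many more of all genes here than edgeR, as given in the last paragraph. The edgeR share is therefore not the background of that call. In the 16 edgeR fits without 1 library Cd163 ran from 0.81 to 1.04, with an adjusted p of 0.0743 to 0.186.

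The other comparisons against vehicle share its 4 libraries with one another and with the regorafenib comparison. With anti-PD1 none of the 10 passed (edgeR, DESeq2 and limma), where 0% of all tested genes were called by edgeR. At an unadjusted p under 0.05, 2 were higher, where 9.32% of all genes passed: Timd4 at 0.89 ± 0.36 (SE, n = 3 and 4; edgeR adjusted p = 0.444) and Mgl2 at 0.57 ± 0.22 (0.414). Timd4 was the only one without overlap, where 4.59% of all tested genes were higher without overlap. Cd163 stood at 0.06 ± 0.18 (interval −0.32 to 0.45).

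With the combination none of the 10 passed against vehicle in edgeR, DESeq2 or limma, where 0.0237% of all tested genes were called by edgeR. Only Stab1 had an unadjusted p under 0.05, at 0.35 ± 0.12 (SE, n = 5 and 4; edgeR adjusted p = 0.301), where 10.8% of all genes passed. Cd163 stood at −0.01 ± 0.16, with an interval of −0.34 to 0.33. With anti-CD40 none passed by the 3 tools and none had an unadjusted p under 0.05, where 0% of all tested genes were called by edgeR and 6.06% passed unadjusted. The log2 changes of the 10 with anti-CD40 ran from −0.19 to 0.37, and Cd163 stood at −0.11 ± 0.18 (SE, n = 3 and 4; interval −0.50 to 0.28).

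**Figure D3:**
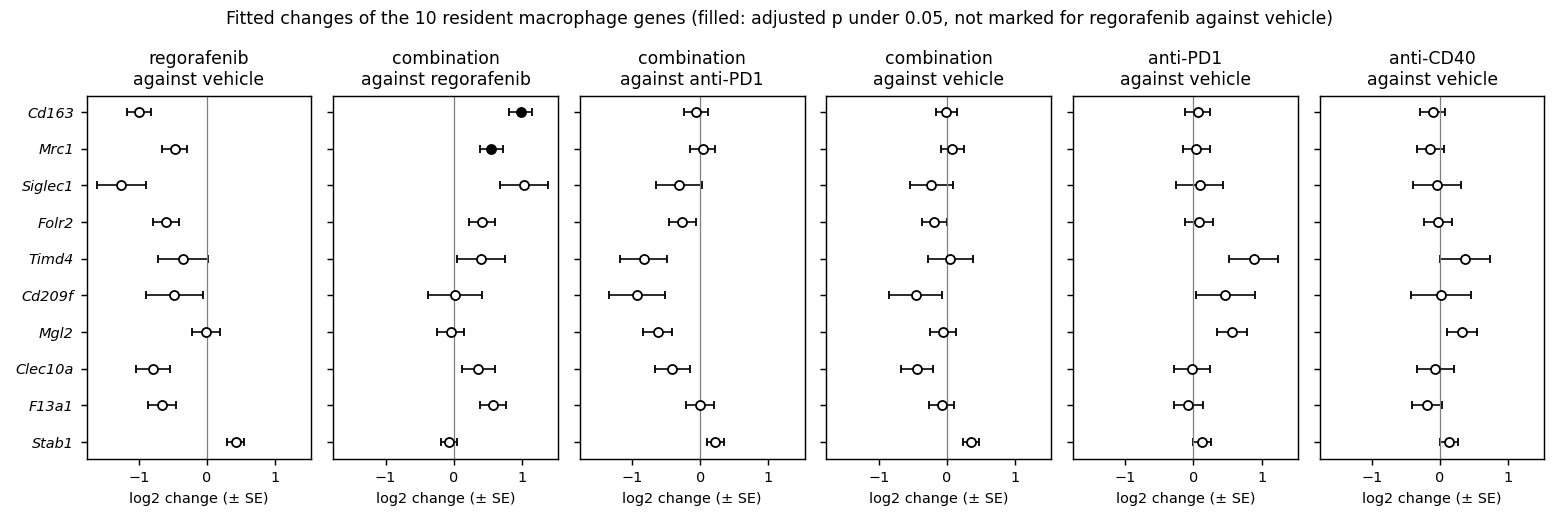
Log2 change ± SE (x axis) of each of the 10 genes (y axis) in 6 comparisons, with filled points for an adjusted p under 0.05 in edgeR and open points throughout for regorafenib against vehicle, which is a description. Filled points occur for Cd163 and Mrc1 with the combination against regorafenib and in no other panel.

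Most of the genes varied together across libraries. Among Cd163, Mrc1, Siglec1, Folr2, Clec10a and F13a1 the 15 pairwise Pearson r of log2 CPM over the 19 libraries ran from 0.65 to 0.89, the highest for Mrc1 with F13a1. Those of Stab1 with the other 9 ran from −0.32 to 0.03, and those of Mgl2 from −0.18 to 0.59, with 0.26 for its neighbour Clec10a. Within groups, after each group's mean was taken away, the 15 values ran from 0.27 to 0.84 and those of Stab1 from −0.01 to 0.53, the highest with Clec10a. The 6 genes were picked out after these values were seen, and the points share groups and libraries. Genes outside the list were compared with the mean of the 10 taken after the log2 CPM of each was standardised. Among the most like this standardised mean were Scara3 (r = 0.88), Rragb (0.88), Vim (0.88), Crhr2 (0.87) and Mill2 (0.87). Most like Cd163 were Txndc16 (0.92), Nek9 (0.91) and Rcsd1 (0.91), and most like Mgl2 were Pgam5 (0.83), Arhgap9 (0.79) and Tada3 (0.76).

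A list of 32 further resident or M2-type macrophage genes, of which 28 could be tested, sets these values among related genes. It too was drawn up with earlier results known. Between the combination and regorafenib 4 of the 28 rose and none fell, with a median of 0.29, where 5.67% of all tested genes were called higher. This comparison again uses the regorafenib libraries in which Cd163 and Siglec1 were known to be low. Mertk, a receptor kinase for the uptake of dying cells, rose by 0.67 ± 0.16 on the log2 scale (edgeR adjusted p = 0.0150). Lyve1, a hyaluronan receptor of perivascular macrophages that lymphatic vessels also carry, rose by 0.69 ± 0.14 (0.00934, edgeR). The lipid scavenger Cd36 rose by 0.48 ± 0.14 (edgeR adjusted p = 0.0395), though epithelium, fat and muscle express it too, and the selenium carrier Selenop by 0.44 ± 0.12 (0.0222). In the comparison of the combination with anti-PD1 none of the 28 passed in edgeR, and the same 4 genes lay between −0.11 and 0.14. The smallest p there was that of Chil3, or Ym1, a secreted M2 marker, at −1.99 ± 0.54 (edgeR adjusted p = 0.180). Its mean was 1.89 ± 1.57 CPM with anti-PD1 (SD, n = 3) and 0.467 ± 0.233 CPM with the combination (n = 5).

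With regorafenib against vehicle, given as a description, Mertk stood at −0.62 and Lyve1 at −0.51. The median of the 28 was −0.29. Among 12 tested genes of the signals upstream of the M2-type state, 9 lay above 0 and 3 below in the same comparison (median 0.13). The receptor genes Il4ra and Il13ra1 stood at 0.79 and 0.45 there. Il4 and Il13 themselves were too low to test. Nr3c1, the glucocorticoid receptor, rose between regorafenib and the combination by 0.41 ± 0.08 (edgeR adjusted p = 0.00633). It was the only 1 of the 12 that passed there, and 8 of the 12 lay below 0. Csf1r, the kinase target, and its ligands Csf1 and Il34 passed in no comparison.

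Genes common to all macrophages did not have the same order of groups. None of 14 such genes passed in any comparison in edgeR. Their median log2 change was 0.03 with regorafenib against vehicle, 0.47 with anti-PD1 against vehicle, where 10 of the 14 had an unadjusted p under 0.05, and −0.26 with the combination against anti-PD1. The mean log2 CPM of the 10 genes was 2.54 ± 0.32 with vehicle (SD, n = 4), 2.06 ± 0.20 with regorafenib (n = 4), 2.75 ± 0.29 with anti-PD1 (n = 3), 2.46 ± 0.24 in the combination group (n = 5) and 2.58 ± 0.10 with anti-CD40 (n = 3). The mean of the 14 was 2.52, 2.57, 3.01, 2.73 and 2.60 in the same order. The 10 minus the 14 then came to 0.02 ± 0.31 with vehicle, −0.51 ± 0.21 with regorafenib, −0.26 ± 0.06 with anti-PD1, −0.27 ± 0.19 in the combination group and −0.02 ± 0.03 with anti-CD40. On this scale the regorafenib libraries (−0.78 to −0.26) overlapped those of vehicle (−0.41 to 0.32) and of the combination (−0.57 to −0.06). With the mean of the 14 as a covariate, an alternative chosen after seeing the data, Cd163 stood at 0.89 (edgeR adjusted p = 0.00632) between the combination and regorafenib, and Mrc1 at 0.42 (0.0953), no longer past the threshold.

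Markers of other cells moved with some of these comparisons. The summed level of 15 skeletal muscle genes was 28067 to 35469 CPM in the regorafenib libraries, below every library of vehicle (40470 to 49049), anti-PD1 (41824 to 48951), the combination (38541 to 52453) and anti-CD40 (38504 to 58354). On the mean log2 scale the groups overlapped, since regorafenib 2 (10.33) lay above vehicle 1 (10.31), combination 4 (10.32) and anti-CD40 3 (10.13). The log2 CPM of Cd163 had a Pearson r of 0.72 with this mean over the 19 libraries, Mrc1 one of 0.33 and Stab1 one of −0.40. With the mean of the squamous genes the r was −0.79 for Cd163, −0.43 for Mrc1 and 0.60 for Stab1. Between the combination and regorafenib 7 of the 15 muscle genes rose, where 5.67% of all tested genes were called higher. With the muscle mean as a covariate, Cd163 stood at 0.76 (edgeR adjusted p = 0.171) in that comparison and Mrc1 at 0.61 (0.326), and none of the 10 genes passed. Only 3 genes of all those tested passed in that fit, against 1768 without the covariate. In the same fit Cd163 stood at −0.81 for regorafenib against vehicle. The squamous list ran the other way, at 45489 to 46854 CPM in the regorafenib libraries and at most 43866 CPM in any other library. Its mean log2 CPM was also higher in every regorafenib library (10.46 or more) than in every other (10.42 or less), so the squamous level and the treatment cannot be told apart here. Blood endothelial genes had an r of 0.70 with the mean of the 10 genes, and none of 8 passed in any comparison in edgeR. Of 12 type I interferon response genes 1, Rsad2, rose between regorafenib and the combination, beside the same 5.67% of all tested genes. All 12 lay above 0 there (median 0.69). The median of 7 adipose genes was −1.36 with regorafenib against vehicle and 0.94 with the combination against regorafenib, where none passed.

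**Figure D4:**
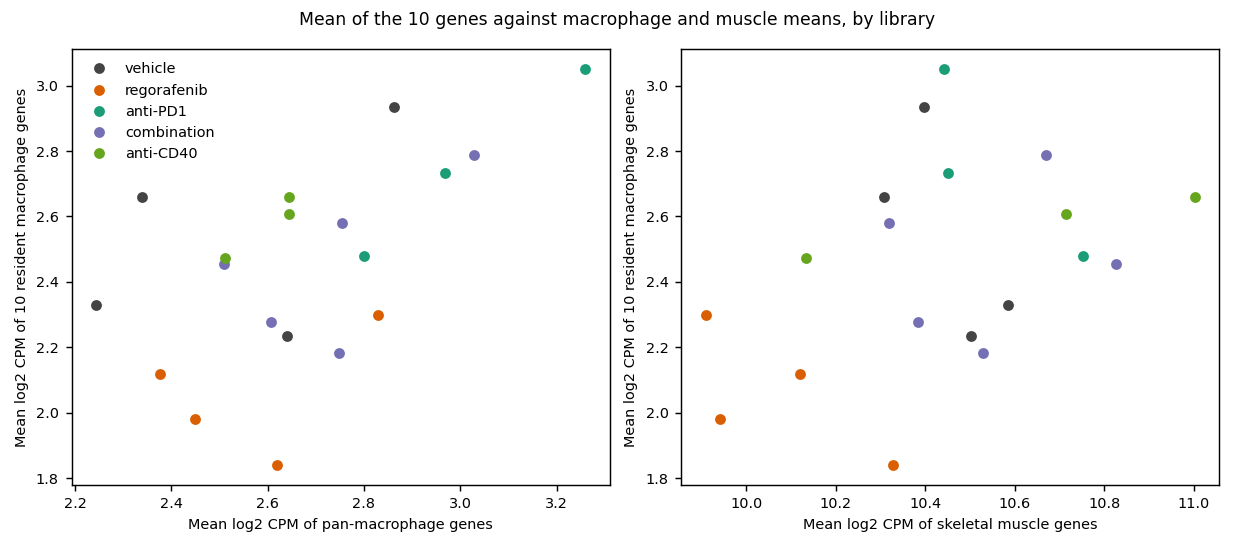
Mean log2 CPM of the 10 genes (y axis) in each library against the mean of 14 genes common to all macrophages (left x axis) and of 15 skeletal muscle genes (right x axis), colored by group. The regorafenib libraries, at a mean of 2.06 for the 10 genes, do not stand apart on the macrophage axis and have the lowest mean on the muscle axis, 10.07.

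Cells that share single genes of the list were followed as well. Lymphatic endothelial cells also express Lyve1, Mrc1 and Stab1. Among 5 tested genes of these cells, Reln (0.68), Mmrn1 (0.68) and Flt4 (0.50) rose between regorafenib and the combination by edgeR. Of all tested genes 5.67% were called higher there. Of the 5 genes 4 lay above 0 and 1 below, at −0.13. The summed level of the lymphatic list was 34.7 to 56.9 CPM with regorafenib, 44.3 to 66.4 with vehicle and 49.6 to 77.9 with the combination. Prox1 stood at 1.44 to 3.78 CPM over the 19 libraries. Mrc1 had a Pearson r of 0.80 with the lymphatic mean over the 19 libraries and Stab1 one of 0.15. Dendritic cells carry Mgl2 and Clec10a. The summed level of their genes was 272 to 383 CPM with anti-PD1, above vehicle (120 to 198), regorafenib (169 to 266) and the combination (179 to 234). Most of that sum came from Cd74 and H2-Ab1, MHC class II pathway genes that macrophages also carry, with means of 187.7 and 96.1 CPM with anti-PD1. The defining gene Zbtb46 stood at 4.83 ± 0.356 CPM with anti-PD1 (SD, n = 3) and 5.46 ± 0.297 with vehicle (n = 4), and Flt3 at 1.66 ± 0.276 and 1.40 ± 0.212. Of the 8 tested dendritic genes, 7 lay above 0 with anti-PD1 against vehicle and 1 below (median log2 change 0.88). Among them 5 were higher at an unadjusted edgeR p under 0.05, where 9.32% of all genes passed, and none passed adjusted. Itgax stood at 9.15 CPM with anti-PD1 and 4.61 with vehicle, and Irf8 at 7.64 and 3.53. The part of muscle, lymphatic or dendritic RNA in these results was not tested beyond the covariate fits named.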

How the data were processed

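Bulk RNA of 19 oral tumour libraries was prepared with an AllPrep DNA/RNA kit and a TruSeq Stranded mRNA kit, per the labels' protocols. Cutadapt 2.4, STAR 2.7.2a and the GRCm38 build are named in the submitters' processing notes. How reads were counted, with which annotation and strand rule, is not given in the sources used here. The authors deposited raw counts for 55487 genes, and 55227 of the IDs matched GENCODE M21, which gave positions and exon lengths.

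Groups came from the sample labels. Genes were kept by edgeR's filterByExpr (16909 genes, 99.92% of counts), scaled by TMM and tested with edgeR 4.0.16 in R 4.3.3 (robust quasi-likelihood test, fitted over all 19 libraries with 14 residual degrees of freedom; the common dispersion was 0.0345). Benjamini-Hochberg adjustment ran over all 16909 genes, with a threshold of 0.05. Log2 CPM for means and correlations used a prior count of 2. The SE was taken from the log2 change and its F statistic, as their ratio after a square root of F. RPKM used the union of exons. No pair of libraries in a group was a duplicate, since counts differed by a chi-square of 12.8 or more per degree of freedom. DESeq2 1.42.0, limma 3.58.1 with sample weights, other scalings and filters, covariates, a replicate block and fits without each library were the alternatives.

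The 10 genes and the 13 other lists, with 165 distinct genes, were chosen with earlier results of these data known. The text names all 10 genes. Of the other lists it names genes that passed, up to 6 per comparison, or at most 2 with the smallest p, and defining cell type markers. Of all other genes it names those with the highest Pearson r to the standardised mean of the 10, to Cd163 and to Mgl2. A few others, given as context, were picked after their values were seen. Some genes that this rule names are not reported here. Promoters were read from the RefSeq table, matched by symbol.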

Additional observations from a re-analysis of the deposited data

Results flagged for a closer look

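Within the groups of 4 or 5 libraries, the highest or lowest library of each gene was compared with the rest by its gap over the group's range (Dixon's 95% values). Of 33 groups examined over the 10 genes and their mean less that of the pan-macrophage genes, 2 held a library far from the others, and chance flags about 1 in 20. Cd209f stood at 3.41 CPM in regorafenib 4, while the other 3 regorafenib libraries lay between 1.41 and 1.72 CPM. Mgl2 stood at 5.88 CPM in vehicle 1, while the other 3 vehicle libraries lay between 3.62 and 3.79 CPM.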

How the results depend on the processing

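Cd163 kept its direction and its call between the combination and regorafenib under every setting except the skeletal muscle covariate. Calls with regorafenib against vehicle, which the tallies below include, are description and support nothing. Of the 10 genes 3 were called there. The number was 5 with DESeq2 or limma, 0 with the muscle covariate and 1 to 3 without single libraries. For the combination against regorafenib 2 of the 10 were called, beside 1768 of all tested genes (10.5%). The number was 1 without the count filter or with the pan-macrophage or adipose covariate. It was 1 to 3 without single libraries, beside 484 to 1747 of all genes. It was 0 with the muscle covariate and 4 with only the groups compared. All-gene totals for this fit and the pan-macrophage covariate are not given below. Nothing particular to the 10 genes is read from these shifts. In the interaction 0 of the 10 were called, beside 0.627% of all tested genes. DESeq2 called 1, and many more of all genes than edgeR. In the other comparisons the number was 0 under every setting run. The pan-macrophage and adipose covariates were chosen after seeing the data. With regorafenib against vehicle Stab1 lost its call in 13 fits and kept it in 5. Siglec1 lost it in 8 and kept it in 9, and passed in 1 of the 8 fits without a library. Cd163 lost it in 1 fit and kept it in 17. The cause of these shifts was not tested.

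The differences that changed sign were not called in any of these fits. For Cd163, combination minus vehicle was 0.030 with limma, 0.066 with the replicate block, 0.035 with the salivary gland covariate, 0.0053 with the adipose one and −0.11 to 0.12 without single libraries. Also for Cd163, anti-PD1 minus vehicle was −0.23 with the pan-macrophage covariate and −0.047 to 0.18 without single libraries, and anti-CD40 minus vehicle −0.33 to 0.034. In the combination against anti-PD1, Cd163 was 0.10 with the pan-macrophage covariate, and Siglec1 was 0.032 with limma and 0.13 with that covariate. F13a1 was 0.040 with limma, 0.11 with the block, 0.19 with the pan-macrophage and 0.012 with the adipose covariate, and −0.17 to 0.10 without single libraries. Mrc1 was −0.0019 with the adipose covariate and −0.092 to 0.14 without single libraries. Over 296 settings of 30 such values, 251 kept direction and call, 15 lost the call, 17 gained it and 13 changed sign. Over 259 fits without a library, 220, 20, 5 and 14 did.

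Libraries of different groups with the same label number had a median r of 0.03 between their deviations over 33 pairs, 15 above 0.1. Those with other numbers had one of −0.06 over 110 pairs, 45 above 0.1. The deposited column names number some vehicle and regorafenib libraries otherwise, and those numbers were not used in this check. Whether libraries are paired is therefore not decided here. The replicate block called 2 of the 10 genes with regorafenib against vehicle, 2 for the combination against regorafenib and 0 elsewhere.

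The number of all genes called moved more. With regorafenib against vehicle it was 1069, then 1684 (DESeq2), 1673 (limma), 69 (muscle covariate) and 269 to 1139 without single libraries. For the combination against regorafenib 1768 became 1094 without the filter, 3052 with limma, 883 with the adipose and 3 with the muscle covariate. In the interaction 106 became 582 with DESeq2, 200 with limma, 164 with only the groups compared, 36 with the block and 35, 306, 5 and 163 with the muscle, gland, pan-macrophage and adipose covariates, and 11 to 177 without single libraries. Anti-PD1 against vehicle had 0, and 80 with DESeq2 and 3 with limma. The combination against vehicle had 4 and 122, against anti-PD1 1 and 110, and anti-CD40 0 and 5, each with edgeR and DESeq2. Other settings gave up to 3 for anti-PD1, up to 2 for anti-CD40, 0 to 9 for the combination against vehicle and 0 to 15 for it against anti-PD1. Timd4 and Siglec1 had the lowest counts, at most 31 and 42 in a library.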
